A study of Mus musculus with 6 samples.

Results

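Antisense RNAs are transcribed from the strand opposite a known gene, and bidirectional promoter RNAs start beside the promoter of a known gene and run away from it on the other strand. Of the 15388 genes in the hippocampal expression table, 199 carried one of these annotations, 168 as antisense RNA and 31 as bidirectional promoter lncRNA, and these 199 were chosen by that annotation alone, without regard to their values. Total RNA came from the hippocampi of 3 Cx3cr1-Cre/Ert2+; NuTRAP+ mice (animals 201, 207 and 208), which were tamoxifen-induced and about 3 months old. Each animal gave an Input library, made from RNA of the cleared hippocampal lysate, and a Positive library, made from RNA that an anti-GFP antibody pulled down with EGFP-tagged ribosomes of Cx3cr1-cre-expressing cells by translating ribosome affinity purification (TRAP). The tag sits on a ribosomal protein and is switched on by Cre, so the pulldown targets ribosome-bound RNA of microglia and of the other macrophages that use the Cx3cr1 promoter. Genotype and tamoxifen were the same in all 6 libraries, and no Cre-negative pulldown was among them. The question was which of these noncoding RNAs were enriched or depleted in the ribosome-bound fraction relative to that cleared lysate.

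Noncoding RNAs of these classes often act in the nucleus. Some silence or activate the gene across from them, such as Kcnq1ot1 at an imprinted domain, many are unstable by-products of promoters that fire in both directions and are cleared by the nuclear RNA exosome, and others reach the cytoplasm and meet ribosomes. Divergent promoters, from which a coding gene and a noncoding RNA start on opposite strands, are typically rich in CG dinucleotides and have no TATA box.

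Starts of 5 bidirectional or divergent RNAs are shown to make this arrangement visible. Each sequence runs 5′ to 3′ on the strand of the noncoding RNA, was read from the RefSeq GRCm38 (mm10) genome, and ends 50 bases inside the noncoding RNA, having begun 50 bases inside the coding neighbour. Capitals mark the bases between the 2 annotated starts. The order is 1500026H17Rik with Scyl2 (chr10:89686236-89686420, plus strand), AC154276.1 with Wapl (chr14:34673714-34673977, minus strand), Cep83os with Cep83 (chr10:94688527-94688703, minus strand), F730043M19Rik with Atxn7l1 (chr12:33147548-33147742, minus strand), and Gt(ROSA)26Sor with Setd5 (chr6:113077284-113077414, minus strand).
1500026H17Rik: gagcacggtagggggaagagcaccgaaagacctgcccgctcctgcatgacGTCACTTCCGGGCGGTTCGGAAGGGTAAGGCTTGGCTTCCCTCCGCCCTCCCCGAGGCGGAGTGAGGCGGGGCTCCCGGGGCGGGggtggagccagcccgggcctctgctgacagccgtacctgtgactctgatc
AC154276.1: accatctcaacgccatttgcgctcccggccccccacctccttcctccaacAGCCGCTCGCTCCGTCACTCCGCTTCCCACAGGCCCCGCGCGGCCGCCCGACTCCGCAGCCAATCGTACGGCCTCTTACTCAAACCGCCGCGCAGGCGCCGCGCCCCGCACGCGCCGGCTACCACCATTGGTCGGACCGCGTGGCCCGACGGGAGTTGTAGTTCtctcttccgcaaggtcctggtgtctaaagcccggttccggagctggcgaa
Cep83os: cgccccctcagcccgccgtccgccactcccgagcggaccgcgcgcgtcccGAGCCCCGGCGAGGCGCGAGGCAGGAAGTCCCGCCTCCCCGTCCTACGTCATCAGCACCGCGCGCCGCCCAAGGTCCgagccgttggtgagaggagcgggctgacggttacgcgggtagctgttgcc
F730043M19Rik: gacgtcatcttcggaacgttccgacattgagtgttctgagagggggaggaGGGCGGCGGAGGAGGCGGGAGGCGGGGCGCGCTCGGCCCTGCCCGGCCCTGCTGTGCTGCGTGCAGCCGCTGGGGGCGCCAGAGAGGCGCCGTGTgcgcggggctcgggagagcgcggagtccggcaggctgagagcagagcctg
Gt(ROSA)26Sor: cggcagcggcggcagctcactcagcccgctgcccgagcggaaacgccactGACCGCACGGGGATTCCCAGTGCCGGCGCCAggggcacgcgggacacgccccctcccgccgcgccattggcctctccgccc
The starts lay 85, 164, 77, 95 and 31 bases apart in that order, and the 5 stretches held 15, 34, 28, 23 and 18 CG dinucleotides. Over windows from 250 bases before to 50 bases after each annotated gene start, the 31 bidirectional promoter RNAs had a median of 31 CG dinucleotides, the 168 antisense RNAs 12 and all 15388 genes 17. The TATA box letters TATAAA, searched on both strands, were in none of the 31 bidirectional windows, in 11 of the 168 antisense windows (6.55%) and in 8.48% of all windows. The GC box letters GGGCGG were in 67.7% of bidirectional windows, 44% of antisense windows and 55.1% of all windows. CCAAT, the NF-Y box, was in 41.9%, 31.5% and 37.8%, and GGAAGT, an ETS core that PU.1 also binds, was in 35.5%, 19% and 25.7%. GCGCATG, part of the NRF1 site, was in 3 of the 199 windows (1.51%) and in 5.93% of all windows.

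The libraries held 14879734 to 17757918 reads counted to genes. Positive was enriched for markers of the targeted cells but still held RNA of other cell types. All 10 microglial markers were higher in Positive (median log2 fold change 4.66), as were all 7 markers of border macrophages (4.15) and all 8 endothelial markers (1.94). All 8 oligodendrocyte markers were lower (-2.13, with summed levels of 52897 to 60270 scaled reads in Input and 12163 to 15994 in Positive), as were 5 of 6 ependymal and choroid plexus markers. Of 10 neuronal markers 3 were higher and 1 was lower, with a summed level of 160131 to 191760 scaled reads in Positive against 146026 to 165338 in Input. Of 8 astrocyte markers 1 was higher and 2 were lower, and of 8 mural markers 1 was higher and 1 was lower. In bulk libraries fewer cells of a type and less RNA per cell cannot be told apart, and the part of these cell types in the results that follow was not tested.

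As a group, the antisense and bidirectional promoter RNAs were depleted in the Positive fraction. In the edgeR quasi-likelihood test, with Benjamini-Hochberg adjustment over all 15343 genes tested, 107 of the 196 members tested were lower in Positive at an adjusted p under 0.05 (54.6%) and 9 were higher (4.59%), while over all genes 22% were lower and 24% were higher. The remaining 80 did not pass, and 3 members (Gm15496, Gm45187 and CT025660.2) fell under the filter, which asked for more than 20 scaled reads in all 3 libraries of one fraction or the other. Scaled reads are counts divided by each library's size factor. Of the 116 members called, 115 moved in 1 direction in all 3 animals. The exception was the antisense RNA Gm9885, which had 123, 123 and 90.2 scaled reads in Input and 60.8, 67.0 and 90.4 in Positive and so did not fall in animal 208; its call was lost without Input of animal 201 or 207 or Positive of animal 201 or 207 (edgeR adjusted p 0.0898 to 0.111).

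The median log2 fold change of the 196 members was -0.66, against -0.01 over all genes tested and 0.01 over 13785 protein-coding genes. Taken within each animal, the members' median was -0.53 in animal 201, -0.56 in animal 207 and -0.71 in animal 208 (mean -0.60 ± 0.10, SD, n = 3). The 165 antisense RNAs had 92 lower and 8 higher with a median of -0.67. The 31 bidirectional promoter RNAs had 15 lower and 1 higher with a median of -0.54, and the 16 calls became 10 without Input of animal 207 and 9 without Input of animal 208. Long intergenic RNAs (lincRNAs) had 160 of 303 lower, 12 higher and a median of -0.66, and processed transcripts had 82 of 180 lower, 16 higher and a median of -0.60, so that the members' share of lower genes was close to that of the other noncoding classes. No test between the classes was made.

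**Figure D1:**
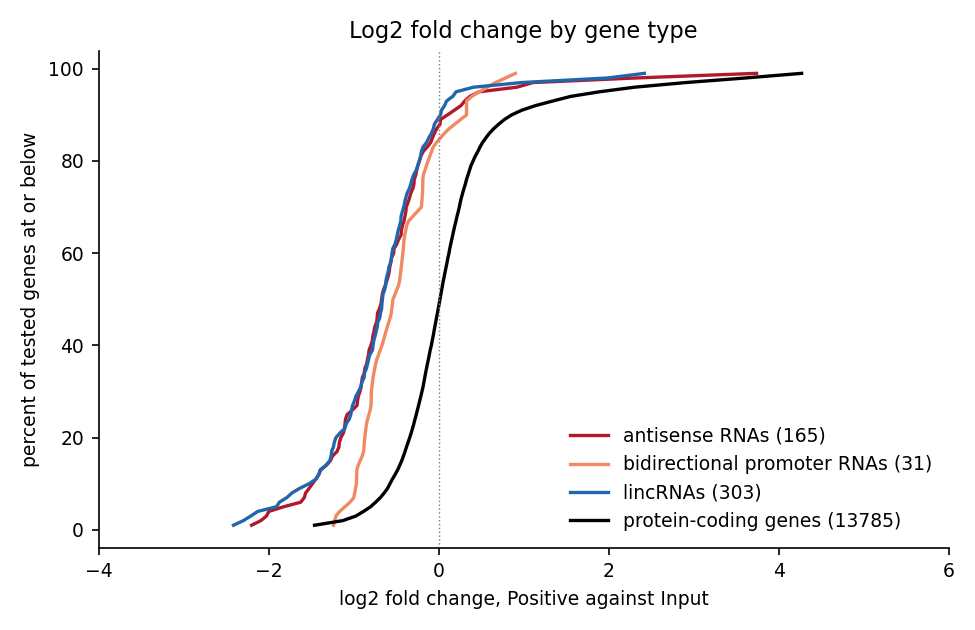
Percent of tested genes (vertical axis) whose log2 fold change, Positive against Input, was at or below the value on the horizontal axis, drawn from the 1st to the 99th percentile for 165 antisense RNAs, 31 bidirectional promoter RNAs, 303 lincRNAs and 13785 protein-coding genes. The noncoding curves lie to the left of the protein-coding curve over most of the range, with medians of -0.67, -0.54, -0.66 and 0.01.

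The filter bears on these counts, since the direction of an RNA that passed through a single fraction is tied to the filter. Of the 196 members, 67 passed through Input only (48 lower, none higher) and 9 through Positive only (4 higher, none lower). Among the 120 members above the filter in both fractions, 59 were lower (49.2%) and 5 higher (4.17%), with a median log2 fold change of -0.45. For all 14130 genes above it in both fractions, 21% were lower and 23.2% higher. The members were also scarce, with a median of 45.4 scaled reads against 412 over all genes, and 151 of them lay under 100. Protein-coding genes above the filter in both fractions with a mean under 100 scaled reads had 14.9% lower and 11.3% higher, and the 75 members in that range had 40% lower and 2.67% higher. In the same range lincRNAs had 40.4% lower and none higher, and processed transcripts 38.9% lower and 4.17% higher. Of the 45 members averaging 100 scaled reads or more, 29 were lower and 3 were higher (64.4% and 6.67%).

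The members' summed share of all counted reads was lower in Positive in every animal. It was 0.164%, 0.168% and 0.169% in the Input libraries of animals 201, 207 and 208, and 0.116%, 0.119% and 0.115% in their Positive libraries. The groups did not overlap, and the mean went from 0.167% ± 0.002 to 0.117% ± 0.002 (SD, n = 3 each), a ratio of 0.698. With 3 libraries against 3 the exact two-sided permutation p was 0.1, the smallest possible. The same ratio was 0.697 for antisense and 0.705 for bidirectional promoter RNAs alone, 0.497 for lincRNAs and 0.734 for processed transcripts. Member by member, 131 of 196 had no overlap between the 3 Input and 3 Positive libraries, against 56.4% of all genes. Of the 196 members, 46 were called lower by more than 2-fold and 2 by more than 5-fold, against 4.47% and 0.3% of all genes. The latter 2, Gm13075 and AC158232.1, passed the filter through Input only, so their direction is tied to it. The 46 also include members that passed through Input only, a group with a median log2 fold change of -1.08.

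The 9 RNAs that were higher in Positive are described first, with all members that rose named whatever their level. Zeb2os, an antisense RNA of 5 annotated exons at chr2:45111138-45114087 (plus strand) inside Zeb2, was the most abundant strongly enriched member. It had 64.3, 67.7 and 56.6 scaled reads in Input and 408, 535 and 344 in Positive. All 3 Positive libraries were far above the highest Input library, and the log2 fold change was 2.77 ± 0.19 (SE; edgeR adjusted p 8.8e-08), a 6.81-fold increase. Zeb2, a zinc-finger transcription factor of neural and myeloid cells, had 2639, 2795 and 2910 scaled reads in Input and 3000, 3397 and 3260 in Positive (log2 fold change 0.21, edgeR adjusted p 0.043). The RNA rose more than its host gene by 2.52 ± 0.19 on the log2 scale (SE; limma on the per-library log2 ratio of both genes, adjusted p 6.6e-05). Of its exon bases, 32.8% lie under exons of the opposite strand and 15.6% coincide with small RNA genes annotated on its own strand, so reads there are of uncertain origin.

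Plxna4os1 lay within Plxna4, which encodes a semaphorin receptor, at chr6:32511073-32515576 (plus strand), with no exon base shared. It had 0, 5.64 and 3.15 scaled reads in Input and 63.9, 57.7 and 43.6 in Positive (log2 fold change 4.15 ± 0.49), and Plxna4 had a log2 fold change of 0.04. Plxna4os1 passed the filter through Positive only, so its direction is tied to that choice and its values are a description. The fold is imprecise, since 9 reads supported the Input value.

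5830432E09Rik, at chr7:135635931-135652314 (minus strand) within the receptor-type phosphatase gene Ptpre, was all but absent from Input. It had 0, 1.88 and 0 scaled reads there and 25.7, 22.3 and 20.8 in Positive. The 2 Input reads against 69 Positive reads gave a scaled ratio of 34.4 (95% exact binomial interval 9.16 to 289, counting error only). Ptpre rose by 0.39 on the log2 scale. Gm30329, at chr8:79225930-79233224 (plus strand), had 9.18, 1.88 and 6.29 scaled reads in Input and 50.5, 79.1 and 68.5 in Positive (log2 fold change 3.51 ± 0.40). The gene annotated opposite it, 1700011L22Rik, was not in the table. Both RNAs also passed the filter through Positive only. Zeb2os, Plxna4os1, 5830432E09Rik and Gm30329 were the 4 of 196 members called over 5-fold higher, against 3.75% of all genes, and 3 of these 4 entered the test through Positive only.

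Brip1os, a 7-exon antisense RNA at chr11:86201370-86304443 (plus strand), had 165, 157 and 156 scaled reads in Input and 354, 420 and 315 in Positive. The 3 Positive libraries were well above the 3 Input libraries (log2 fold change 1.19 ± 0.14, edgeR adjusted p 2.0e-05). It runs across Med13, a Mediator subunit (log2 fold change 0.18, not called), and Ints2, a subunit of the Integrator complex, which fell (-0.38, edgeR adjusted p 0.024). Brip1os differed from Ints2 by 1.56 ± 0.13 and from Med13 by 0.99 ± 0.18 (limma adjusted p 1.2e-04 and 0.0039). Opposite-strand exons cover 20.2% of the exon bases of Brip1os, and reads there are of uncertain origin.

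The other 4 had smaller changes. Opposite-strand exons cover 29.7% of the exon bases of Gm6277, 49.5% of Gm9917, 36.7% of AC153504.1 and 26.2% of 9530082P21Rik. Reads there are of uncertain origin. Gm6277, opposite Cables1, a partner of cyclin-dependent kinases, had 78.5, 111 and 105 scaled reads in Input and 171, 271 and 187 in Positive (log2 fold change 1.10 ± 0.21, edgeR adjusted p 8.8e-04). Cables1 rose by 1.03, and the difference of 0.07 ± 0.19 did not pass (limma adjusted p 0.80). Gm9917, which overlaps the hyaluronidase gene Hyal2, Rassf1 and Tusc2, had 14.3, 9.40 and 12.6 scaled reads in Input and 31.9, 22.3 and 23.9 in Positive (log2 fold change 1.10 ± 0.33), having passed the filter through Positive only, while Tusc2 fell by 0.75 on the log2 scale. AC153504.1 was the single bidirectional promoter RNA that rose, from 26.5, 20.7 and 29.4 to 62.8, 56.7 and 35.3 scaled reads. Galnt4, an enzyme of mucin-type glycosylation that starts across from it, rose by 1.55, and Poc1b, a centriole protein gene, by 0.82. 9530082P21Rik, opposite the zinc-finger gene Flywch1, went from 28.5 ± 4.80 to 49.2 ± 8.58 (SD, n = 3; edgeR adjusted p 0.028). These calls were less firm. DESeq2 gave adjusted p 0.0629 for Gm9917 and 0.0632 for 9530082P21Rik. That of Gm9917 was lost without Input of animal 207 or Positive of animal 201 (edgeR adjusted p 0.0711 and 0.0587), that of AC153504.1 without Input of animal 207 (0.0606), and that of 9530082P21Rik without any 1 of Input 201, Input 208, Positive 201 or Positive 207 (0.0561 to 0.102).

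**Figure D2:**
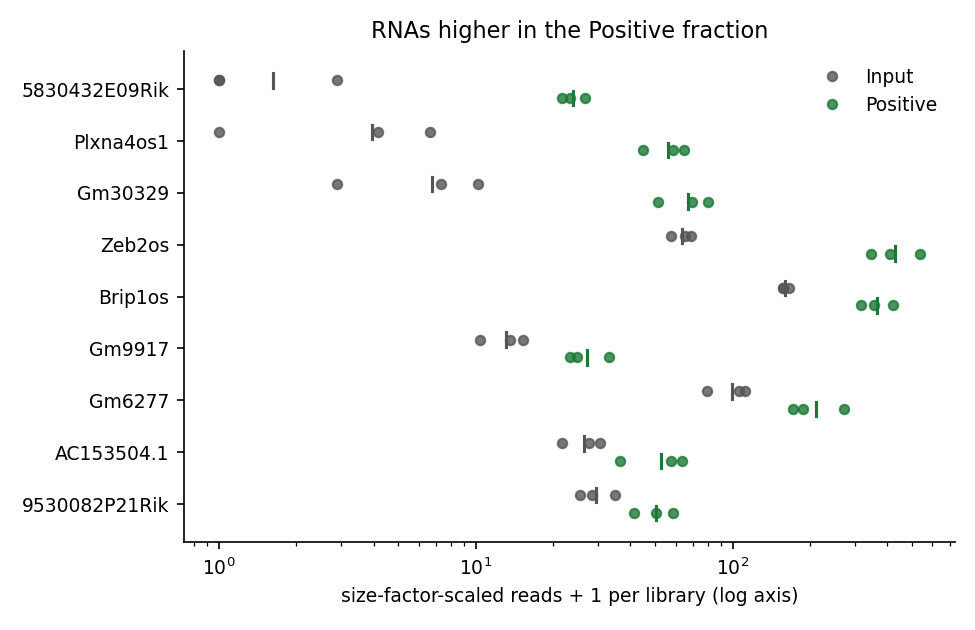
Scaled reads plus 1 on a log axis for the 9 RNAs higher in Positive, with 1 point for each of the 3 Input and 3 Positive libraries and a vertical tick at each group's mean. In none of the 9 do the Input and Positive points overlap, and Zeb2os and Brip1os are the most abundant.

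Start regions of 2 RNAs that rose and of Rab10os, the abundant member that fell most, are shown for their unlike base composition. Each covers 250 bases before and 50 after the annotated start in GRCm38, 5′ to 3′ on the strand of the RNA, and capitals mark any of the 5 motifs named above on either strand. None of the motifs contains another, but GGGCGG and CCAAT overlap once in the Brip1os window. The regions are chr11:86201120-86201419 (Brip1os), chr6:32510823-32511122 (Plxna4os1) and chr12:3235254-3235553 (Rab10os), all on the plus strand.
Brip1os: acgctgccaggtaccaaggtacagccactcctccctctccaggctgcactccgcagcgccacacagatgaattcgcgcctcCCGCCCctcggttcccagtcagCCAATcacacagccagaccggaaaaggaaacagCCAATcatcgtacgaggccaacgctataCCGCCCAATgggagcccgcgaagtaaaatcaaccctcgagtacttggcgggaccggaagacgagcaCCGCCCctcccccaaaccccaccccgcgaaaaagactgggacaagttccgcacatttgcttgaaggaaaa
Plxna4os1: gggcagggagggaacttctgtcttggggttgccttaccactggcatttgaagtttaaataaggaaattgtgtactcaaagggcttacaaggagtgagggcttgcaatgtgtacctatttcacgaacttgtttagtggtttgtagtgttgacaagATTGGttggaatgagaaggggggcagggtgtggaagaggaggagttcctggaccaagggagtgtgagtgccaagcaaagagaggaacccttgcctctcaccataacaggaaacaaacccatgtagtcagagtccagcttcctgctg
Rab10os: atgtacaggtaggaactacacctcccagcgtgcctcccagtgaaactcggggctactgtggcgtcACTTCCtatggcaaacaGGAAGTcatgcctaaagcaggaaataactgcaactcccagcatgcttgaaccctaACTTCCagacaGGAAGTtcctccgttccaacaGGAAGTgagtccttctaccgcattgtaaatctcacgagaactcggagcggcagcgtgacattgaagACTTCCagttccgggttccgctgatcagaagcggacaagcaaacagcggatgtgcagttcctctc
The Brip1os window held 22 CG dinucleotides with 3 GGGCGG and 3 CCAAT, and the Plxna4os1 window 1 CG dinucleotide and 1 CCAAT. The Rab10os window held 13 CG dinucleotides and 6 GGAAGT. Over the 9 RNAs that rose the median was 10 CG dinucleotides and GGAAGT was in 1 window. Over the 107 that fell the median was 17 and GGAAGT was in 24 (22.4%). The 80 not called were close to those that fell, with a median of 16 and GGAAGT in 18 (22.5%). A match of letters is a description and not a binding site.

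Among the members averaging 100 scaled reads or more that fell, Rab10os changed most. This 6-exon RNA at chr12:3235504-3250377 (plus strand) overlaps the end of Rab10, a small GTPase of vesicle transport. It had 789, 956 and 896 scaled reads in Input and 352, 407 and 413 in Positive, so every Positive library was under every Input library. The log2 fold change was -1.17 ± 0.11 (edgeR adjusted p 1.7e-06), with 44.4% of the Input level left. Rab10 had 2216, 2423 and 2477 scaled reads in Input and 2250, 2583 and 2679 in Positive, and Rab10os fell against it by 1.24 on the log2 scale (limma adjusted p 2.8e-04).

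Other abundant RNAs beside transcription factor and chromatin genes fell as well. Gm13111, which starts across from Prdm16, a zinc-finger transcription factor, had 266, 258 and 292 scaled reads in Input and 114, 153 and 105 in Positive (log2 fold change -1.13 ± 0.16), and Prdm16 had -0.26 (not called). Zbtb11os1, a single-exon RNA that overlaps the start of Zbtb11, had 161, 195 and 163 in Input and 76.2, 78.1 and 89.3 in Positive (-1.09 ± 0.17), while Zbtb11 rose by 0.24. A830082K12Rik, head to head with Nr2f1, an orphan nuclear receptor that patterns the forebrain, had 217, 220 and 240 in Input and 113, 145 and 134 in Positive (-0.79 ± 0.15). Nr2f1 fell by 0.62 too, and their difference did not pass (limma adjusted p 0.38).

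Further decreases were seen beside genes of metabolism, DNA repair and membrane proteins. 9330151L19Rik, a bidirectional promoter RNA that overlaps Dnaaf2, had 328, 386 and 367 scaled reads in Input and 193, 192 and 208 in Positive (log2 fold change -0.87 ± 0.13). 2810001G20Rik, divergent from Cox10, an enzyme of heme A synthesis, fell from 201 ± 36.1 to 114 ± 15.7 scaled reads (-0.82), and Cox10 had 0.23 (not called). E130307A14Rik, divergent from Rev3l, the catalytic subunit of DNA polymerase zeta, had 461, 499 and 478 scaled reads in Input and 253, 319 and 272 in Positive (-0.77 ± 0.12). Tmem147os fell from 199 ± 25.1 to 117 ± 18.1 (-0.77), and Tmem147 across from it fell by 0.33.

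Decreases were also seen in the following RNAs. Gm15965, inside the synaptic phosphatase gene Synj1 with no exon base shared, had 164, 174 and 184 scaled reads in Input and 116, 112 and 88.3 in Positive (log2 fold change -0.72 ± 0.17), against 0.14 for Synj1 (not called). A230077H06Rik fell from 148 ± 14.2 to 76.4 ± 7.65 scaled reads (-0.95) and Vstm2b across from it by 0.46. A830036E02Rik, opposite the keratin gene Krt12, fell from 466 ± 68.9 to 249 ± 65.7 (-0.91).

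Some of the lowest values belonged to scarce RNAs, named here after their values were seen. Gm13075 had 23.5, 24.4 and 27.3 scaled reads in Input and 4.12, 3.72 and 1.04 in Positive (log2 fold change -3.02 ± 0.44). AC158232.1 fell from 36.4 ± 7.66 to 7.11 ± 3.33 (-2.36 ± 0.38). AC174678.1 fell from 62.2 ± 7.76 to 14.4 ± 5.60 (-2.11), and Gm27003 from 34.5 ± 5.20 to 7.95 ± 3.61 (-2.10). All 4 passed the filter through Input only, so their direction is tied to that choice and the values are a description.

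Of the 6 most abundant members, the 5 beside Rab10os had log2 fold changes from -0.44 to -0.07. B230334C09Rik, a single-exon RNA at chr3:158067186-158076112, had 2411, 2363 and 2484 scaled reads in Input and 1698, 2058 and 2191 in Positive (log2 fold change -0.29 ± 0.09, edgeR adjusted p 0.024). 4933431E20Rik, head to head with the glutathione transferase gene Gstm5, had 1961, 1675 and 1839 in Input and 1389, 1327 and 1370 in Positive (-0.42 ± 0.08), and Gstm5 fell by 0.28. Both fell in all animals, but B230334C09Rik did not pass the test when 1 of 4 libraries was left out (Input of animal 201, 207 or 208, or Positive of animal 201; edgeR adjusted p 0.0542 to 0.09). Tug1, a widely expressed regulatory RNA, had 1213, 1334 and 1331 scaled reads in Input and 1091, 1222 and 1373 in Positive, and its groups overlapped (-0.07 ± 0.09, edgeR adjusted p 0.55).

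Gm29084, a single-exon RNA within the polarity gene Pard3b, went against its host gene. It had 696, 763 and 905 scaled reads in Input and 550, 611 and 581 in Positive (log2 fold change -0.44 ± 0.11), while Pard3b rose by 1.18 (limma adjusted p of the difference 9.1e-05). Gt(ROSA)26Sor, the RNA of the Rosa26 locus, into which the NuTRAP cassette is inserted, had 615, 608 and 691 in Input and 496, 504 and 521 in Positive (-0.33 ± 0.10, edgeR adjusted p 0.013; 0.0807 without Input of animal 208). Setd5, which starts 31 bases away on the other strand, had -0.08 (not called). Whether reads of the cassette add to this RNA was not tested. Per kilobase of exon, Gm29084 was the most abundant of these in Input at 543 scaled reads, before Gt(ROSA)26Sor at 377, B230334C09Rik at 271, 4933431E20Rik at 268, Rab10os at 143 and Tug1 at 133.

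Of the members known from development and imprinting, Kcnq1ot1 and Emx2os passed the test and Dlx6os1 and Dlx1as did not, and no test compared them with each other. Kcnq1ot1, the imprinted RNA that silences genes around Kcnq1 on the paternal chromosome, had 838, 605 and 546 scaled reads in Input and 458, 468 and 396 in Positive (log2 fold change -0.59 ± 0.15, edgeR adjusted p 0.0055). Dlx6os1, which acts with Dlx transcription factors in GABAergic interneurons, had 186, 161 and 197 in Input and 168, 168 and 180 in Positive, and its groups overlapped (-0.07 ± 0.15, edgeR adjusted p 0.71). Dlx1as had 92.8, 66.7 and 67.1 in Input and 73.1, 81.8 and 74.8 in Positive (0.02 ± 0.21, edgeR adjusted p 0.94). The GABAergic partners Dlx1 (0.20) and Dlx6 (0.26) were not called either.

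Emx2os, antisense to the forebrain homeobox gene Emx2, had 90.8, 111 and 108 scaled reads in Input and 80.3, 67.9 and 70.6 in Positive (log2 fold change -0.50 ± 0.19, edgeR adjusted p 0.047). It was lower in all animals, but the call is at the threshold and was lost with the animal as a block (edgeR adjusted p 0.053), in DESeq2 (adjusted p 0.077) and when any library but Input of animal 201 was left out (0.0552 to 0.146). Prox1os, opposite the dentate granule cell transcription factor Prox1, had -0.30 (not called) while Prox1 rose by 0.35. Gm16536, opposite the beta-secretase gene Bace1, had 210, 211 and 216 scaled reads in Input and 220, 224 and 200 in Positive, and both genes were near 0 (0.02 and 0.03).

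**Figure D3:**
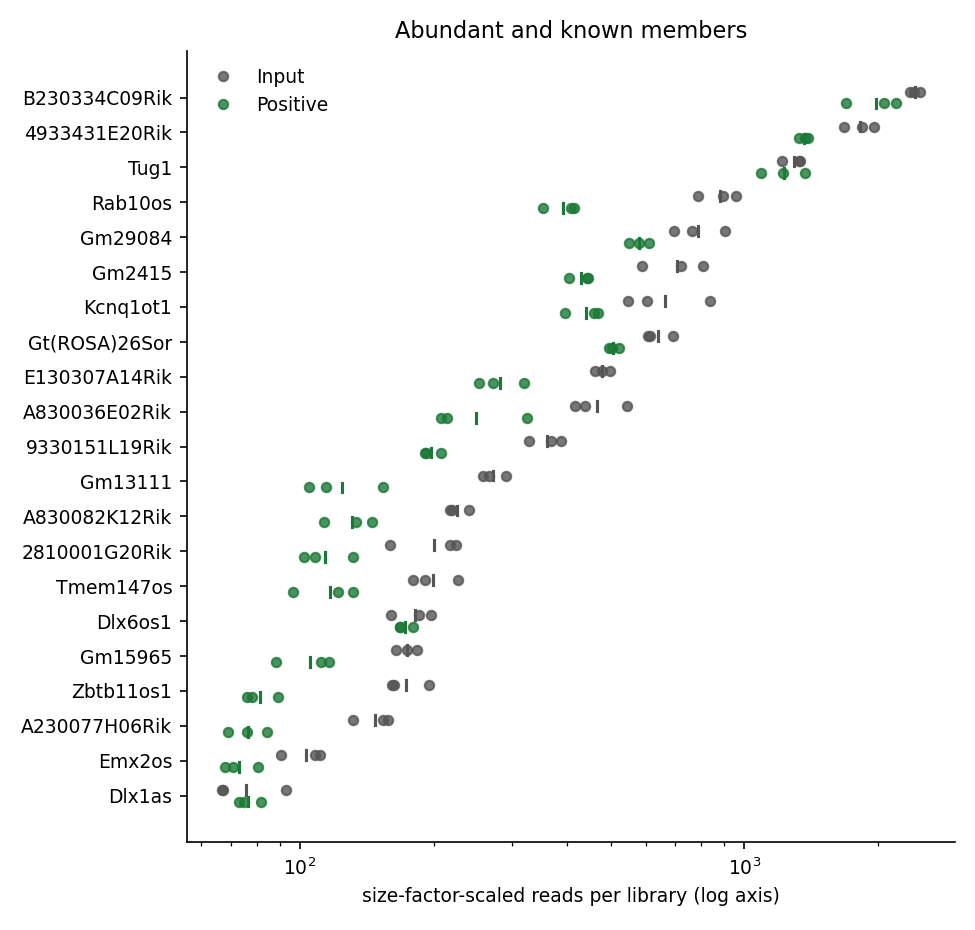
Scaled reads per library on a log axis for the named abundant and known RNAs that did not rise, ordered by mean Input level, with 1 point per library (3 Input, 3 Positive) and a vertical tick at each group's mean. Positive points lie under the Input points for Rab10os, Gm13111 and Zbtb11os1, and overlap them for Tug1, Dlx6os1 and Dlx1as.

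The genes on the opposite strand gave a comparison within each locus. Of the members, 179 overlapped an opposite-strand gene of the table, or started within 1000 bases of one and ran away from it, and 20 had none there. After the filter 211 such pairs with 176 members could be tested, by limma on the log2 ratio of the 2 genes in each library, with Benjamini-Hochberg adjustment over all 2331 opposite-strand pairs of the table. The log2 fold changes differed in 121 of the 211 pairs, in 107 with the antisense or bidirectional RNA lower than its neighbour and in 14 with it higher. Over all 2331 pairs 41.1% differed. In the 134 pairs whose RNA was above the filter in both fractions, 75 differed (56%), 66 with the RNA lower and 9 with it higher; in the other 77 the filter bore on the direction (46 differed, 41 and 5). Of the 208 pairs with a protein-coding neighbour 119 differed, 105 of them with the RNA lower. Of the members, 32 occur in more than 1 pair, so pairs are not independent.

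Both genes were called lower in 28 of these 208 pairs and both higher in 5. The RNA fell while the coding gene rose in 23, and the reverse was seen in 2. As shares, 13.5% of the pairs had both lower, 2.4% both higher and 12% opposite calls, against 6.09%, 5.23% and 7.72% of all 2331 pairs. Among members that passed the filter through Input only none was called higher, so the filter bore on these shares. The shares and the counts by arrangement below were not split by it. Over the 208 pairs the Spearman correlation of the 2 log2 fold changes was 0.11 and Pearson's r 0.04, as a description across genes measured in the same 6 libraries. The RNA was lower than its neighbour in 22 of 36 divergent pairs without overlap and higher in none. It was lower in 42 of 95 head-to-head overlaps (higher in 5), in 22 of 43 nested pairs (higher in 6) and in 19 of 34 tail-to-tail overlaps (higher in 3).

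**Figure D4:**
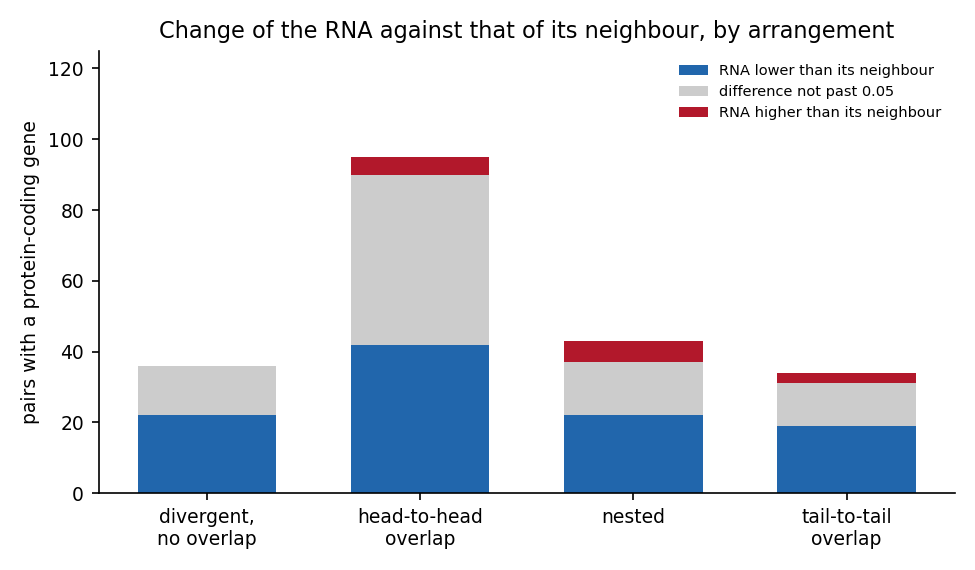
Number of pairs of an antisense or bidirectional promoter RNA with a protein-coding gene, by how they lie to each other (36 divergent, 95 head-to-head, 43 nested, 34 tail-to-tail), split by whether the RNA's log2 fold change was lower than, higher than or not different from its neighbour's (limma adjusted p under 0.05). In every arrangement the pairs with the RNA lower (22, 42, 22 and 19) outnumber those with it higher (0, 5, 6 and 3). Pairs whose RNA passed the filter through a single fraction are included.

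The largest negative differences were at coding genes that rose strongly in Positive. E430024P14Rik had 63.2, 51.7 and 76.6 scaled reads in Input and 42.2, 27.9 and 45.7 in Positive, whereas Tagap, a gene of immune cells that it spans, had 8.16, 18.8 and 6.29 in Input and 315, 353 and 193 in Positive. The RNA was lower and the coding gene 25.2-fold higher, a difference of -5.39 ± 0.55 (limma adjusted p 3.0e-04). Tagap passed the filter through Positive only, so its rise and this difference are tied to the filter. The call of E430024P14Rik itself was weak (edgeR adjusted p 0.039), and was lost in DESeq2 (adjusted p 0.0595) and without Input of animal 201 or 208 or Positive of animal 201 or 207 (0.0567 to 0.159). 6330418K02Rik was not called (66.3, 60.1 and 53.5 in Input and 64.9, 51.2 and 60.2 in Positive; -0.03 ± 0.22, edgeR adjusted p 0.92), whereas Gal3st4, a sulfotransferase with which it shares 879 exon bases, rose from 21.6 ± 4.60 to 283 ± 37.4 scaled reads. The pair differed by -3.69 ± 0.25 (limma adjusted p 4.0e-05). Gal3st4 had 16.3 scaled reads in Input of animal 201 and so passed the filter through Positive only. Its rise and this difference are tied to the filter too. Gm43720, whose exons hold nearly all of those of Gal3st4 on the same strand, rose by 2.62, and how reads were split between them is uncertain.

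Gm2415 had 588, 721 and 808 scaled reads in Input and 444, 403 and 442 in Positive (log2 fold change -0.72 ± 0.12). It lies between a gene that fell with it and a gene that rose. Ctdspl, a phosphatase gene that it meets head to head, fell by 0.95, and Itga9, an integrin subunit gene whose end it overlaps, rose by 1.80. Its difference from Itga9 was -2.47 ± 0.28 (limma adjusted p 4.8e-04). 1500015A07Rik fell from 110 ± 26.8 to 56.5 ± 18.5 scaled reads while Afap1l1 rose by 1.32, and A030001D20Rik fell from 111 ± 14.6 to 76.5 ± 5.45 while the endothelial gene Rasip1 rose by 1.39. The call of 1500015A07Rik was lost without Input of animal 207 (edgeR adjusted p 0.0704), and that of A030001D20Rik was lost in DESeq2 (adjusted p 0.0564) and without any library but Input of animal 201 (0.0529 to 0.132). The 8 endothelial markers rose as well (4860 to 9620 summed scaled reads in Positive against 2030 to 2519 in Input), and their part in these differences was not tested.

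Further pairs were named after their values were seen. Gm40578 had 95.9, 78.9 and 92.3 scaled reads in Input and 29.9, 22.3 and 21.8 in Positive (log2 fold change -1.85 ± 0.24), whereas Tnfaip2 rose by 2.55, a difference of -4.39 ± 0.40 (limma adjusted p 1.7e-04). Gm4876 fell by 1.27 while Tes, the gene of the focal adhesion protein testin, rose by 3.09. Gm4876 and 1500026H17Rik passed the filter through Input only, so their direction is tied to it. Tnfaip2, with 8.16 ± 4.57 scaled reads in Input (SD, n = 3), passed through Positive only, so its rise is tied to the filter too. In divergent pairs 1500026H17Rik fell by 1.21 while Scyl2 rose by 0.47, and AC154276.1 fell by 0.73 while Wapl, the cohesin release factor, rose by 0.56. Cep83os and Cep83, by contrast, fell together (-0.42 and -0.48). F730043M19Rik fell from 629 ± 76.8 to 475 ± 26.1 scaled reads (-0.41), with Atxn7l1 at 0.19 (not called). Without Input of animal 207, 1500026H17Rik (edgeR adjusted p 0.0649) and Cep83os (0.114) were not called, and the latter also not without Input of animal 208 (0.0909) or Positive of animal 201 (0.0898). F730043M19Rik was not called without Input of animal 208 (0.063), and AC154276.1 was not called in DESeq2 (adjusted p 0.0892) nor without any 1 library but Positive of animal 207 (0.0689 to 0.147).

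Brip1os with Ints2 was not the sole named pair in which the RNA's log2 fold change lay above that of a neighbour that fell. E530011L22Rik (-0.26, not called) was higher by 0.47 than Nktr, which fell by 0.72. Gm20687 (-0.29, not called) was higher by 0.48 than Zfhx2, which fell by 0.77, and lower by 0.85 than the adaptor subunit gene Ap1g2, which rose by 0.59. Gm4117 (-0.67) was higher by 0.53 than Vcan, the proteoglycan versican, which fell by 1.22, and lower by 0.95 than Xrcc4 on its other side (0.26, not called; limma adjusted p of the difference 0.019). Its own call was lost without Input of animal 207 (edgeR adjusted p 0.105). Of the exon bases of Gm20687, 97.1% coincide with other genes of its own strand, so its reads are of uncertain origin.

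**Figure D5:**
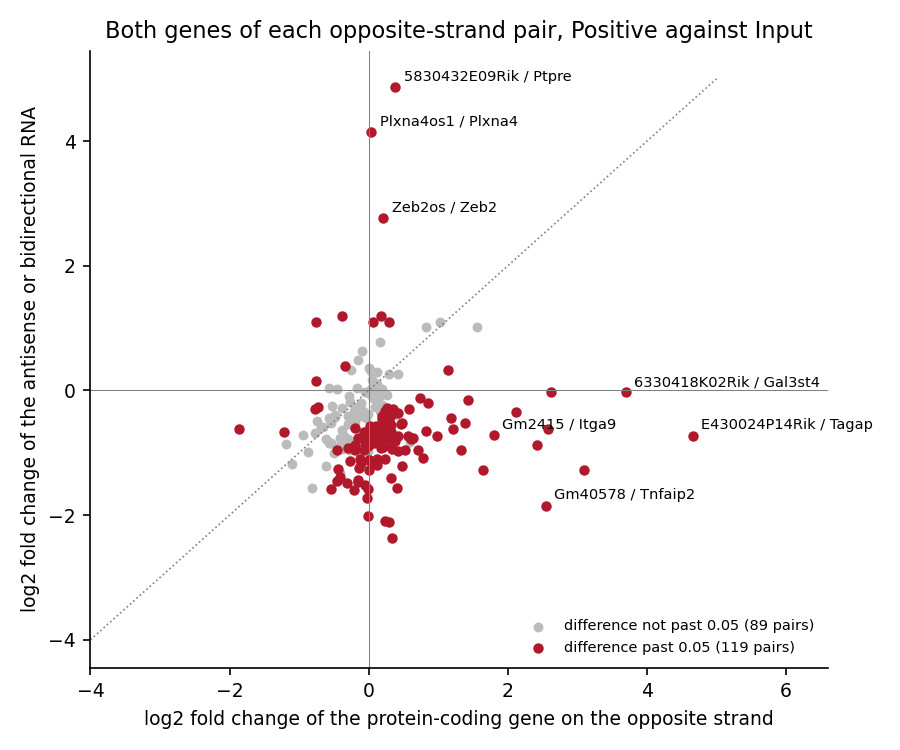
Log2 fold change, Positive against Input, of each antisense or bidirectional promoter RNA (vertical axis) against that of the protein-coding gene on the opposite strand (horizontal axis) for 208 pairs, with the dotted line marking equal values. Red points are the 119 pairs whose difference passed (limma adjusted p under 0.05), and 105 of them lie below the line.

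How far reads of the 2 strands were kept apart bears on these pairs. The library kit marks strand and the alignment was directional, and reads in the wrong orientation were dropped, but whether the counting per gene used strand was not given in the sources used here. A member's exons were covered by opposite-strand exons over a median of 11.4% of their bases, 50 members had no such base and 6 were covered over at least 80%. Gm19412, covered over 89.7% and above the filter in Input only, had a mean of 27.3 scaled reads and fell by 1.28 on the log2 scale, while Tapbp, an antigen-processing gene with 904 of the same bases, had 1002 and rose by 1.64. A630072M18Rik, covered over 95%, fell by 0.69 (not called without Input of animal 207, edgeR adjusted p 0.0868), with Rsbn1l at 0.04 (not called). Gm11175, covered in full by Jund, had -0.39 and Jund -0.49, and their difference did not pass (limma adjusted p 0.67). Among the 65 coding pairs that share no exon base, 39 differed, 36 with the RNA lower and 3 with it higher, and among the 143 that share exon bases 80 did, 69 and 11. Both counts include RNAs that passed the filter through Input only, whose direction is tied to it, and were not split by it.

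The RNAs were also described by their structure. The 107 members that fell had a median of 2150 exon bases, 3 exons and a longest open reading frame of 86 codons, the 80 not called had 2560 bases, 2 exons and 95.5 codons, and the 9 that rose had 4420 bases, 4 exons and 104 codons. Over the 196 members the Spearman correlation with the log2 fold change was 0.22 for exon length, -0.01 for the number of exons, 0.11 for the longest open reading frame, 0.29 for the mean level and -0.06 for CG dinucleotides in the start window. These are descriptions across genes that share the same 6 libraries. Of the 196 members, 67 passed the filter through Input only and 9 through Positive only, and 4 of the latter were among those that rose. The filter therefore bore on these medians and correlations, which were not split by it.

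Other genes of nuclear RNA biology were followed for comparison. Of 8 nuclear lncRNAs of other classes, 6 fell and none rose (median log2 fold change -1.03). Meg3, an imprinted RNA, fell by 1.32, Miat by 1.44 and Neat1, the scaffold of paraspeckles, by 0.86, whereas Malat1, a nuclear speckle RNA, had 0.39 ± 0.17 (edgeR adjusted p 0.072). Of 17 tested genes of the RNA exosome and its cofactors, 3 were higher and 2 lower (median 0.07). Skiv2l2, the MTR4 helicase that feeds the exosome, rose by 0.40, as did the catalytic subunit gene Exosc10 by 0.31, and Pabpn1, a nuclear poly(A)-binding protein, fell by 0.38. Of 10 genes of nonsense-mediated decay, 4 were higher and 2 lower (median 0.16). Over all genes tested 24% were higher and 22% lower, and over lincRNAs 3.96% and 52.8%.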

How the data were processed

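RNA was taken from hippocampal Input and Positive TRAP fractions of 3 mice, the same animal giving both, and poly(A)-selected directional libraries were sequenced. Per the methods the authors aligned reads directionally to mm10 in Strand NGS and applied DESeq normalization. Per the file headers, genes were kept where all libraries of either fraction reached 20 raw reads. The deposited table holds estimated counts per gene, which need not be whole, beside log2 normalized values.

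Estimated counts were rounded and scaled by median-of-ratios size factors. Genes with more than 20 scaled reads in all libraries of either fraction were tested in edgeR 4.0.16 (quasi-likelihood, no block, adjusted p under 0.05 over all genes) in R 4.3.3. Opposite-strand pairs, overlapping or divergent within 1000 bases by the deposited coordinates, were tested in limma 3.58.1 on log2(scaled reads + 1) ratios. The folds of these ratios are understated for low genes. Exons were taken from GENCODE M21 (GRCm38). Of the 199 members, 194 had the same coordinates in that annotation. Start windows and sequences were read from the RefSeq GRCm38.p6 genome. Open reading frames run from ATG to stop in any annotated transcript. Alternatives were TMM and total count scaling, other filters and pseudocounts, DESeq2 1.42.0, limma on the deposited log2 values, an animal block and leaving out each library.

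The same animal numbers mark the same mouse, so the fractions are paired by design. Deviations of the 2 fractions of an animal from their group means correlated at 0.27, 0.08 and 0.15 over 12125 genes, and the fit without the block followed the study. Both procedures were tested on simulated data before use. Named RNAs were up to 12 changes each way among those averaging 100 scaled reads or more with a call in 1 direction in all animals (3 rose; the 12 lowest of 29 that fell), the 6 most abundant, known antisense RNAs, and the 6 highest and 6 lowest pair differences with means of at least 50; all 9 that rose, the scarce RNAs with large changes and those chosen for their position or sequence were named beyond that rule, after their values were seen. The members, lists and motifs were chosen with earlier results of these data known. Depth was 14879734 to 17757918 counted reads per library, the median standard error of a member's log2 fold change was 0.27 against 0.13 over all genes, and intervals cover counting error only. The start sequence of 1 named RNA is not reported here.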

Additional observations from a re-analysis of the deposited data

How the results depend on the processing

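The count of 116 members that differed was 114 with TMM scaling, 122 with total count scaling, 116 without the filter, 115 with limma on the deposited log2 values and 93 in DESeq2. Under the replicate block (animal) it was 117, of which 113 were shared, and the pair count went from 121 to 124; among the named RNAs the block ended only the call of Emx2os. A filter of at least 100 scaled reads left 48 members, of which 35 differed, by its construction: 29 of 40 antisense RNAs (median log2 fold change -0.56) and 6 of 8 bidirectional promoter RNAs, with 35 of 52 pairs. Keeping only members above the filter in both fractions, chosen after seeing the data, left 64 of 120 members, 52 of 96 antisense RNAs and 75 of 134 pairs that differed, with fewer genes by construction. Leaving out 1 library gave 85 to 101 members, 75 to 89 antisense and 9 to 15 bidirectional promoter RNAs, 89 to 109 pairs, medians of -0.72 to -0.64 for antisense and -0.54 to -0.47 for bidirectional promoter RNAs, and read-share differences of -0.0516 to -0.0494 percentage points. The bidirectional count fell from 16 to 10 without Input of animal 207 and to 9 without Input of animal 208; the cause was not tested. The pair count was 120 and 123 with pseudocounts of 0.1 and 5. No gene held over 1% of the reads in any library, so leaving such genes out of the total changed nothing.

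Of the named RNAs, 16 lost their call in at least 1 alternative without a change of sign, in 50 instances, as given beside each. Another 4 RNAs near 0 changed sign and were called in no setting. Dlx1as (0.02) was at -0.056 with total count scaling and ran from -0.063 to 0.196 without 1 library. Gm16536 (0.02) was at -0.06 with total count scaling and -0.002 with limma on the deposited values, and ran from -0.014 to 0.066 without 1 library. 6330418K02Rik (-0.03) ran from -0.111 to 0.061 and Tug1 (-0.07) from -0.159 to 0.004. With 151 of 196 members under 100 scaled reads, changes of scarce RNAs were less precise than those of coding genes.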
